A study of Schizosaccharomyces pombe with 6 samples.

Results

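Genes for carbon sources other than glucose are kept low in fission yeast (Schizosaccharomyces pombe) while glucose is plentiful, and Scr1 is a zinc finger repressor that takes part in this. Here scr1 and 6 genes listed with it as glucose-repressed (fbp1, inv1, gld1, mae2, adh4 and agl1) were followed in polyadenylated RNA. In these libraries mae2 and adh4 were not low. The 7 genes were chosen by gene name in the deposited annotation, and all 7 names were found among the 6986 genes counted. Each matched 1 gene, and all 7 had enough counts to be among the 6045 features tested. The duf89∆ group was strain AS2300, an h- strain carrying duf89delta::hygR, in which a hygromycin resistance marker disrupts the gene for a phosphatase of metabolite repair. The control group was the WT strain JS 77, for which the labels give no mating type. Both were grown at 30 °C to log phase in YES, a rich medium that contains glucose. Each group had 3 libraries. Those of duf89∆ are labelled as biological replicates and those of WT are only numbered, so the WT spread may be technical.

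Glucose repression in this yeast runs through several signals. Glucose sensed at the cell surface raises cAMP and activates protein kinase A, which holds back the activator Rst2, while Scr1 occupies promoters together with the Tup11 and Tup12 co-repressors. When glucose runs low, Scr1 leaves the nucleus, Rst2 and the Atf1-Pcr1 dimer act, and genes such as fbp1 are switched on. The AMP-activated kinase, whose catalytic subunit is Ssp2, acts in the same response.

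Library totals lay between 18244492 and 21572536 counts. The gene duf89 itself (SPCC1393.13) had 229, 234 and 373 raw counts in the duf89∆ libraries, against 808, 897 and 794 in WT. Its log2 fold change was -1.74 (SE 0.16, adjusted p = 6.6e-05), so it was lower in every duf89∆ library, although counts remained. Differential expression throughout is edgeR's quasi-likelihood test with Benjamini-Hochberg adjustment over all features tested, and a gene is called at an adjusted p below 0.05. Fold changes are log2 of duf89∆ over WT, and levels are CPM (counts scaled to TMM-adjusted library totals). Over all features 53.3% were called, 28.8% higher and 24.6% lower, so a call by itself is common in this comparison. The WT libraries were deposited earlier with another series, although the series text says that they were sequenced together with the mutant. Genotype and any difference in handling between the groups cannot be told apart.

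Of the 7 genes, adh4, agl1, gld1 and scr1 were lower in duf89∆ and mae2 was higher. The values of fbp1 and inv1 did not pass the test. The genes called lower were thus 4 of 7, where 24.6% of all features were called lower, and 1 of 7 was called higher, where 28.8% were. The 7 genes were chosen with earlier results of these data known, so these shares only describe them. Without the repressor gene scr1, 3 of 6 were lower and 1 was higher. Of the 4957 protein-coding genes tested, 1646 were called higher and 1184 lower. The median log2 fold change over the 7 was -0.26, against 0.00 over all features tested. In 6 of the 7 the libraries of the groups did not overlap, inv1 being the exception, where 63.3% of all features had no overlap. Of these, fbp1 and mae2 were higher in every duf89∆ library (32.9% of all features) and the other 4 were lower (30.4%). In RNA from a whole culture, fewer cells carrying a transcript and less of it per cell cannot be told apart.

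**Figure D1:**
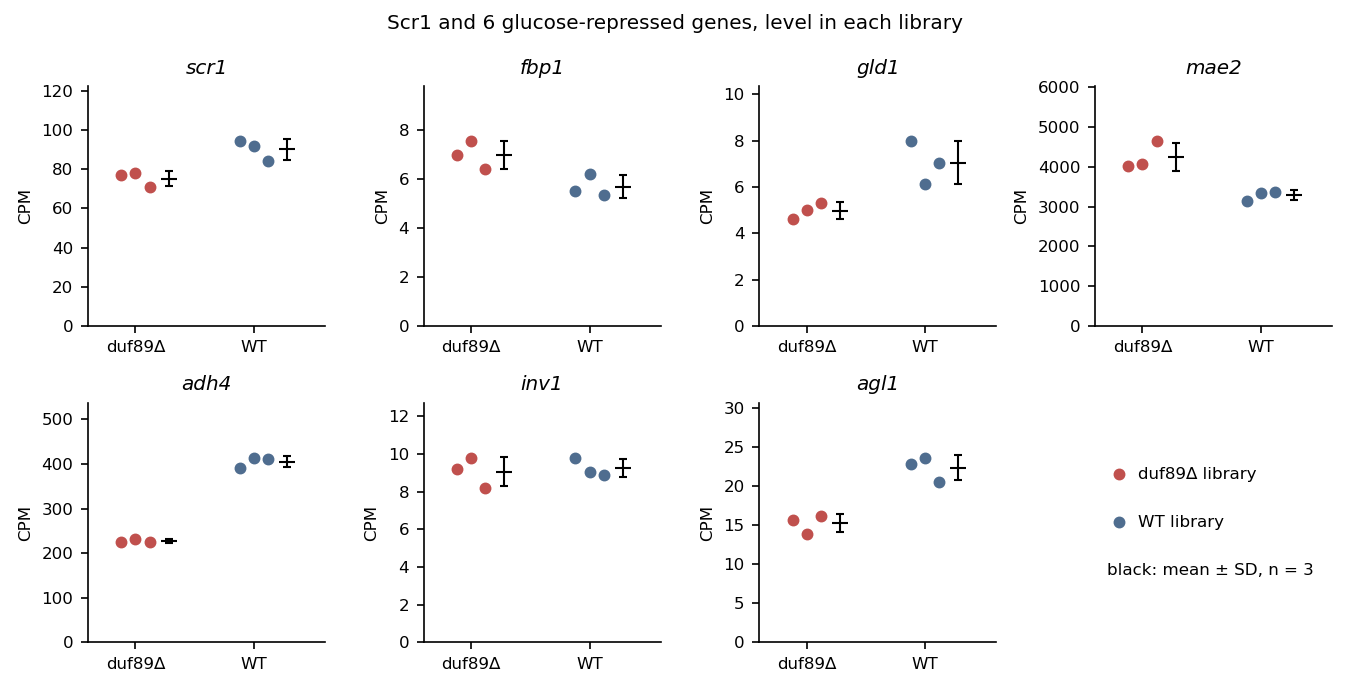
Level of each gene in each library, in CPM from 0 (vertical axis, a separate scale per gene), with duf89∆ libraries in red, WT libraries in blue and the mean ± SD of 3 libraries in black. The groups are set apart for every gene but inv1, with adh4 near 227 CPM in duf89∆ and 405 CPM in WT.

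**Figure D2:**
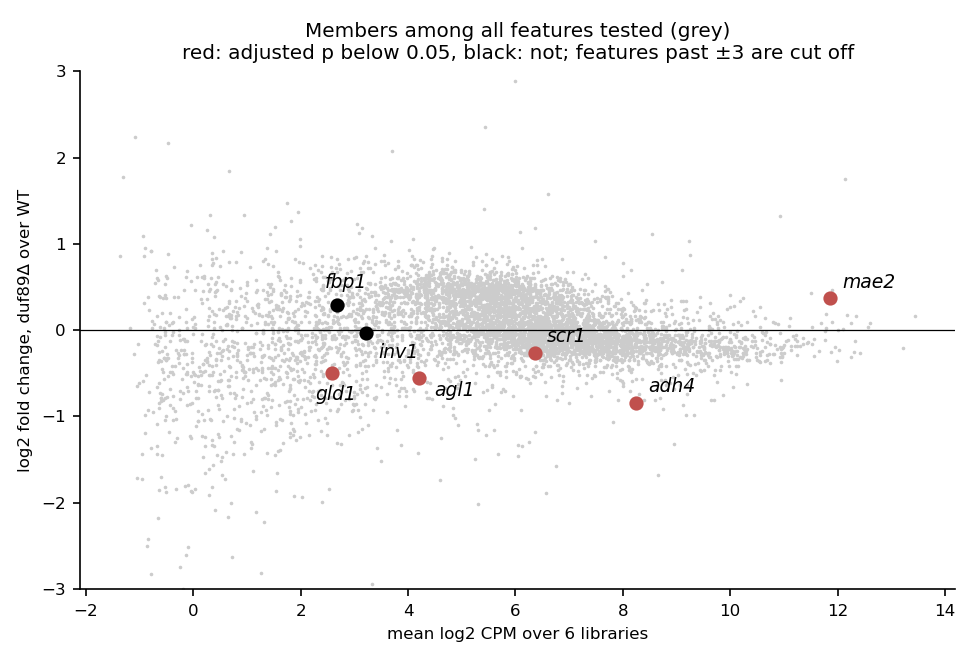
Log2 fold change of duf89∆ over WT (vertical axis) against mean log2 CPM over 6 libraries (horizontal axis) for all features tested in grey, with the 7 genes labelled, red where called and black where not. Of the labelled genes adh4 (-0.84) lies lowest and mae2 (0.37) highest, and fbp1, gld1 and inv1 sit at the low end of expression.

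The repressor gene scr1 (SPBC1D7.02c, chromosome II) was slightly lower in the deletion. It measured 77.0, 77.8 and 70.7 CPM in duf89∆, against 94.1, 91.8 and 84.2 CPM in WT. Every duf89∆ library was below every WT library. The difference was -0.26 in log2 fold change (SE 0.06, 95% interval -0.40 to -0.12, adjusted p = 0.0080), which is 1.20-fold lower in duf89∆. Of the 4957 protein-coding genes tested, 12.8% had a fold change as low or lower. These values are of mRNA, and where the Scr1 protein lay in the cell was not measured.

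The gene adh4 (SPAC5H10.06c, chromosome I), which codes for an alcohol dehydrogenase, had the lowest fold change of the 7. It measured 224, 231 and 225 CPM in duf89∆, and 390, 414 and 412 CPM in WT. The groups lay far apart, with an SD of 4.03 CPM in duf89∆ and 12.9 CPM in WT. In log2 fold change this was -0.84 (SE 0.04, 95% interval -0.94 to -0.74, adjusted p = 1.5e-06), or 1.79-fold lower in duf89∆. This was the 65th lowest value among the protein-coding genes tested, at the lowest 1.31%. The main ethanol-forming enzyme, Adh1, is coded by another gene, adh1, which was slightly higher at 4944 ± 364 CPM in duf89∆ and 4377 ± 69.8 CPM in WT (SD, n = 3 each; log2 fold change 0.18, SE 0.05, edgeR adjusted p = 0.021). Its call was lost without WT replicate 1 or 2 (adjusted p = 0.051 in each case).

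The gene agl1 (SPAPB24D3.10c, chromosome I) codes for an α-glucosidase that splits maltose into glucose. Raw counts were 340, 284 and 341 in duf89∆, against 414, 459 and 389 in WT. Its levels were 15.7, 13.9 and 16.2 CPM in duf89∆, and 22.9, 23.6 and 20.6 CPM in WT, with no overlap. The log2 fold change was -0.55 (SE 0.10, 95% interval -0.77 to -0.33, adjusted p = 0.0019).

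The gene inv1 (SPCC191.11, chromosome III) codes for the secreted invertase, which splits sucrose into glucose and fructose, and is a known target of Scr1. It had 200, 199 and 173 raw counts in duf89∆, against 177, 176 and 168 in WT. In CPM the duf89∆ libraries measured 9.22, 9.76 and 8.21, and the WT libraries 9.79, 9.06 and 8.89, so the groups overlapped. The log2 fold change was -0.03 (SE 0.12, adjusted p = 0.85), with a 95% interval of -0.30 to 0.24 that leaves room for moderate changes in either direction. Its sign turned with total counts only, without duf89∆ replicate 3 and without WT replicate 1 (0.01 to 0.06).

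The gene gld1 (SPAC13F5.03c, chromosome I), for the glycerol dehydrogenase that turns glycerol into dihydroxyacetone, was the least certain of the calls. It had 100, 102 and 112 raw counts in duf89∆, against 144, 119 and 133 in WT. Its levels were 4.61, 5.0 and 5.32 CPM in duf89∆, and 7.97, 6.13 and 7.04 CPM in WT, with no overlap and with WT replicate 2 the closest to the deletion. The log2 fold change was -0.50 (SE 0.16, 95% interval -0.85 to -0.15, adjusted p = 0.022). The call was lost without duf89∆ replicate 1 (-0.41, adjusted p = 0.107), duf89∆ replicate 2 (-0.47, adjusted p = 0.0727) or WT replicate 1 (-0.40, adjusted p = 0.0595), and with total counts only (-0.43, adjusted p = 0.0505).

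The gene mae2 (SPCC794.12c, chromosome III), for malic enzyme, which turns malate into pyruvate, was the one called higher. It measured 4011, 4074 and 4639 CPM in duf89∆, and 3134, 3352 and 3372 CPM in WT. Each duf89∆ library was above each WT library, with duf89∆ replicate 3 the highest of all. The log2 fold change was 0.37 (SE 0.06, 95% interval 0.23 to 0.50, adjusted p = 0.0012), or 1.29-fold higher in duf89∆, a value that 79.2% of the protein-coding genes did not exceed. With a correction that removes the trend of fold changes with abundance (cyclic loess) it measured 0.56, more than with any other setting tried. Because mae2 and adh4 moved in opposite directions, the ratio of mae2 to adh4, each per kilobase, was 13.5, 13.2 and 15.5 in duf89∆ and 6.03, 6.09 and 6.14 in WT. That pair was picked after its values were seen, and the ratio is a description.

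The gene fbp1 (SPBC1198.14c, chromosome II) codes for fructose-1,6-bisphosphatase of gluconeogenesis and is the classic reporter of glucose repression in this yeast. It had 152, 154 and 135 raw counts in duf89∆, against 100, 121 and 101 in WT. Its levels were 7.01, 7.55 and 6.41 CPM in duf89∆, and 5.53, 6.23 and 5.34 CPM in WT. Every duf89∆ library was above every WT library, and the lowest of duf89∆ was close to the highest of WT. A log2 fold change of 0.29 (SE 0.14) did not pass the test (adjusted p = 0.11), and its 95% interval was -0.03 to 0.61. It was positive under every alternative that tested the gene, from 0.23 to 0.38, with adjusted p between 0.0598 and 0.247.

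In the authors' deposited table the log2 fold changes were -0.86 for adh4, -0.57 for agl1, -0.52 for gld1, -0.28 for scr1, -0.05 for inv1, 0.27 for fbp1 and 0.35 for mae2. The adjusted p of fbp1 in the authors' deposited table was 0.20 and that of gld1 was 0.021.

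The levels of the 7 genes spanned a wide range, compared here as CPM per kilobase of transcript with the transcript lengths that RefSeq gives for assembly ASM294v3. The order from high to low in duf89∆ was mae2 (2119 ± 173), adh4 (150.8 ± 2.7), scr1 (21.3 ± 1.1), agl1 (4.97 ± 0.39), fbp1 (4.09 ± 0.33), inv1 (3.32 ± 0.29) and gld1 (2.58 ± 0.18; SD, n = 3). In WT the order was mae2 (1641 ± 66.1), adh4 (269.7 ± 8.6), scr1 (25.5 ± 1.5), agl1 (7.28 ± 0.52), gld1 (3.65 ± 0.48), inv1 (3.39 ± 0.18) and fbp1 (3.33 ± 0.27). The last 3 of the WT order did not differ beyond their spread. In duf89∆ gld1 was below fbp1 in each library, whereas in WT their per-kilobase values overlapped.

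Set among the protein-coding genes tested, fbp1, inv1, gld1 and agl1 were near the bottom in per-kilobase level. Of those genes, 4.42% in duf89∆ and 3.87% in WT lay at or below fbp1. For inv1 the values were 3.87% in duf89∆ and 3.95% in WT, for gld1 3.37% in duf89∆ and 4.22% in WT, and for agl1 5.14% in duf89∆ and 7.81% in WT. By contrast mae2 was among the most abundant mRNAs, with 98.9% of the genes at or below it in duf89∆ and 98.0% in WT. The gene adh4 was also high, with 83.7% at or below it in duf89∆ and 90.0% in WT. In log-phase cells in YES, mae2 and adh4 were thus not low, and a low level in glucose held for the other 4 genes. For scr1 these shares were 24.1% in duf89∆ and 34.1% in WT.

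The fbp1 locus carries other annotated RNAs. In the ASM294v3 annotation the antisense RNA fbp1-antisense-1 (SPNCRNA.1324, 3627 nucleotides) covers the whole of fbp1 (1710 nucleotides) on the opposite strand. It had 635, 677 and 728 raw counts in duf89∆, against 469, 486 and 529 in WT, and so more reads than fbp1 in every library. The ratio of antisense to fbp1 counts, each per kilobase, was 1.97, 2.07 and 2.54 in duf89∆ and 2.21, 1.89 and 2.47 in WT, and the groups overlapped. The antisense RNA was called higher (log2 fold change 0.30, SE 0.09, adjusted p = 0.019). That call was lost with cyclic loess (0.04, adjusted p = 0.73) and without WT replicate 2 (0.26, adjusted p = 0.0834). On the upstream side of fbp1 and on its strand lies SPNCRNA.1325, which RefSeq names fbp1-ot3. It had 65, 72 and 70 raw counts in duf89∆, against 50, 58 and 51 in WT, and did not pass the test (0.22, SE 0.17, adjusted p = 0.31). The libraries are stranded, but whether the counting used strand was not found in the labels, so reads of fbp1 and of its antisense partner may not be fully told apart.

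**Figure D3:**
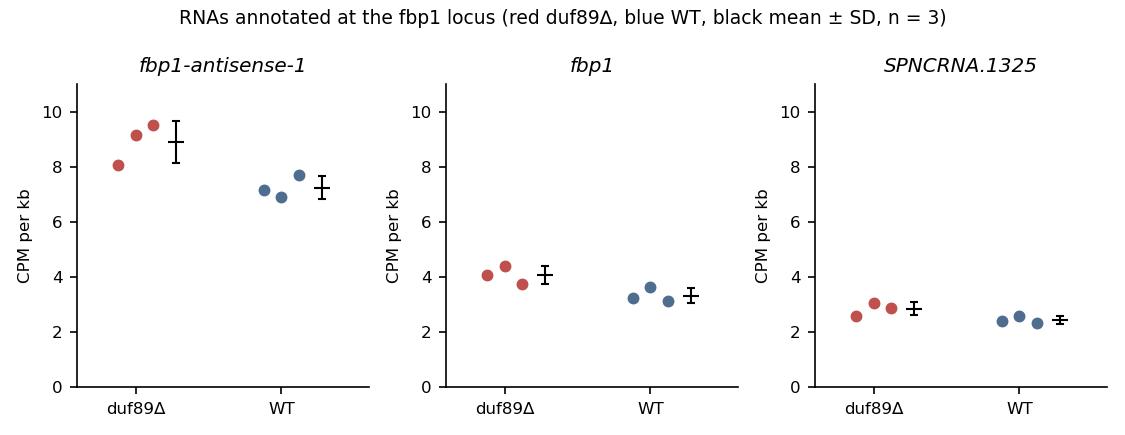
Level per kilobase (CPM per kb, vertical axis from 0) of fbp1-antisense-1, fbp1 and SPNCRNA.1325 in each duf89∆ library (red) and each WT library (blue), with the mean ± SD of 3 libraries in black. The antisense RNA is above fbp1 in all 6 libraries, and fbp1 measures 4.09 ± 0.33 in duf89∆ and 3.33 ± 0.27 in WT.

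The nearest counted features on each side of the 7 genes were measured as well. Downstream of fbp1, the TFIIF subunit gene tfg2 was higher in duf89∆ (0.24, SE 0.08, adjusted p = 0.035), a call lost with cyclic loess (0.07) and without duf89∆ replicate 3, WT replicate 1 or WT replicate 2 (0.18 to 0.24, adjusted p up to 0.0992). The TFIID subunit gene taf7, downstream of gld1, was higher (0.55, SE 0.11, adjusted p = 0.0029) while gld1 was lower. The pseudogene SPCC1450.01c, on the other strand at the 3′ side of inv1, was higher (0.52, SE 0.11, adjusted p = 0.0041). Upstream of adh4, SPAC5H10.07 was lower (-0.55, SE 0.14, adjusted p = 0.010), as adh4 was. Of the other neighbours, vta1-antisense-1 (0.07), SPCC794.15 (-0.07), ent3 (0.09), SPAC5H10.04 (-0.19), pdr1 (-0.06), SPNCRNA.1460 (-0.23) and snoZ15 (0.57) did not pass. Of these ent3 passed with total counts (0.16), cyclic loess (0.19), GC-corrected offsets (0.12), without the mitochondrial and rRNA genes (0.12) and without duf89∆ replicate 3 (0.14). With cyclic loess SPAC5H10.04 (-0.31) and snoZ15 (0.96) passed too. The neighbours SPCC191.10 and SPRRNA.13 had too few counts to be tested.

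A list of 9 transcription regulators was followed, of which 5 were lower and 1 higher, with a median log2 fold change of -0.15. It held activator genes, co-repressor genes and genes of the CCAAT-binding complex. Over all features tested 24.6% were called lower and 28.8% higher, with a median of 0.00. The gene rst2, for the zinc finger activator of fbp1, measured 217 ± 20.3 CPM in duf89∆ and 297 ± 3.4 CPM in WT (SD, n = 3 each), which is -0.45 in log2 (SE 0.06, edgeR adjusted p = 0.00062). The bZIP factor gene atf1 measured 177 ± 10.3 CPM in duf89∆ and 239 ± 21.7 CPM in WT (-0.43, SE 0.07, edgeR adjusted p = 0.0012). Both the activator genes and the repressor gene scr1 were thus lower. The gene of the co-repressor Ssn6 was higher, at 124 ± 12.2 CPM in duf89∆ and 92.4 ± 3.4 CPM in WT (0.42, SE 0.07, edgeR adjusted p = 0.0015). Smaller values were called for pcr1 (-0.19), the partner of Atf1, for php5 (-0.19), of the CCAAT-binding complex, and for the co-repressor gene tup12 (-0.15), and tup11 measured 0.02 (adjusted p = 0.80). Of the same complex as php5, php2 (0.11, edgeR adjusted p = 0.13) and php3 (-0.04, edgeR adjusted p = 0.61) did not pass. The genes pcr1, php5, tup12, tup11, php2 and php3 were chosen for mention after their values were seen. The calls of pcr1, php5 and tup12 were lost with total counts only (-0.12, -0.12 and -0.09), and those of php5 and tup12 also with cyclic loess (-0.07 and -0.01). That of tup12 was lost without the mitochondrial and rRNA genes as well (-0.13, adjusted p = 0.0582). Leaving out duf89∆ replicate 3 ended all 3 calls, leaving out WT replicate 2 those of pcr1 and tup12, leaving out duf89∆ replicate 1 that of php5, and leaving out duf89∆ replicate 2 or WT replicate 1 that of tup12. Without duf89∆ replicate 3 the list had 3 members higher and 2 lower, tup11 among the higher (0.12, adjusted p = 0.0492). Without WT replicate 2 it had 3 lower.

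In the AMP-activated kinase list 2 of 5 members were lower, by little, and 0 higher, where 24.6% and 28.8% of all features were. The members called lower were the catalytic subunit gene ssp2, at -0.15 (SE 0.06, adjusted p = 0.046), and sds23, at -0.18 (SE 0.05, adjusted p = 0.013), which is needed for growth at low glucose. The call of ssp2 was lost without any single library other than WT replicate 3, with values from -0.17 to -0.10, and among other settings with total counts (-0.09) and cyclic loess (-0.09). That of sds23 was lost without duf89∆ replicate 2 or 3 or WT replicate 2, with values from -0.16 to -0.12, with GC-corrected offsets (-0.10, adjusted p = 0.0632) and with cyclic loess (-0.04, adjusted p = 0.49). No member was called higher by edgeR, at an unadjusted p below 0.05 the count higher was also 0, and with DESeq2 it was 0. With cyclic loess 0 members were lower and 1 was higher.

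In the cAMP list 2 of 10 members were higher and 1 lower, and the median log2 fold change was 0.00. Over all features 28.8% were called higher and 24.6% lower. The genes called higher were git11, for the G protein γ subunit (0.50, SE 0.10, adjusted p = 0.0031), and git7, for a protein needed to activate adenylate cyclase (0.59, SE 0.15, adjusted p = 0.0078). The phosphodiesterase gene cgs2, whose product breaks down cAMP, was lower (-0.22, SE 0.07, adjusted p = 0.021), a call lost with total counts (-0.15) and without duf89∆ replicate 1 (-0.18) or duf89∆ replicate 3 (-0.15). The gene of the kinase itself, pka1, chosen for mention after its value was seen, measured 84.7 ± 0.94 CPM in duf89∆ and 86.9 ± 3.7 CPM in WT and did not pass (-0.04, SE 0.05, adjusted p = 0.59). Its sign turned with total counts (0.03) and with offsets corrected for GC content (0.01).

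Genes in the same metabolic routes as the 6 genes other than scr1 moved in both directions, 3 of 11 higher and 5 lower. Their median log2 fold change was 0.09. Over all features tested 28.8% were called higher and 24.6% lower, with a median of 0.00, so the share called higher was close to that of all features. In the glycerol route, where Gld1 makes dihydroxyacetone, the dihydroxyacetone kinase gene dak2 was lower, at 38.0 ± 4.1 CPM in duf89∆ and 59.1 ± 3.9 CPM in WT (SD, n = 3 each; -0.64, SE 0.09, edgeR adjusted p = 0.00063). The glycerol-3-phosphate dehydrogenase genes gpd2 (-0.58, SE 0.04, adjusted p = 1.8e-05) and gut2 (-0.53, SE 0.10, adjusted p = 0.0027) were lower as well. Another gene of this kind, gpd1, did not pass (0.09, SE 0.06, edgeR adjusted p = 0.27). It measured 1170 ± 67.3 CPM in duf89∆ and 1100 ± 91.3 CPM in WT (SD, n = 3 each). The second kinase gene, dak1, measured -0.17 (adjusted p = 0.019), a call lost with total counts (-0.10), cyclic loess (-0.08), GC-corrected offsets (-0.09) and without duf89∆ replicate 1 (-0.14), duf89∆ replicate 2 (-0.11) or WT replicate 2 (-0.15). In the malate route, the malate permease gene mae1 was higher along with mae2 (0.27, SE 0.05, adjusted p = 0.0024), and the pyruvate carboxylase gene pyr1 was lower (-0.39, SE 0.04, adjusted p = 0.00015). In the ethanol route the aldehyde dehydrogenase gene atd1 was higher, at 518 ± 74.2 CPM in duf89∆ and 351 ± 16.5 CPM in WT (SD, n = 3 each; 0.56, SE 0.09, edgeR adjusted p = 0.0012). Of the genes for maltose and sucrose use, the maltase gene mal1 did not pass (0.19, SE 0.10, edgeR adjusted p = 0.13). The sucrose and maltose transporter gene sut1 did not pass either (0.18, SE 0.09, edgeR adjusted p = 0.12). The genes gut2, gpd1, dak1, mae1, atd1, adh1, mal1 and sut1 were chosen for mention once their values were known.

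**Figure D4:**
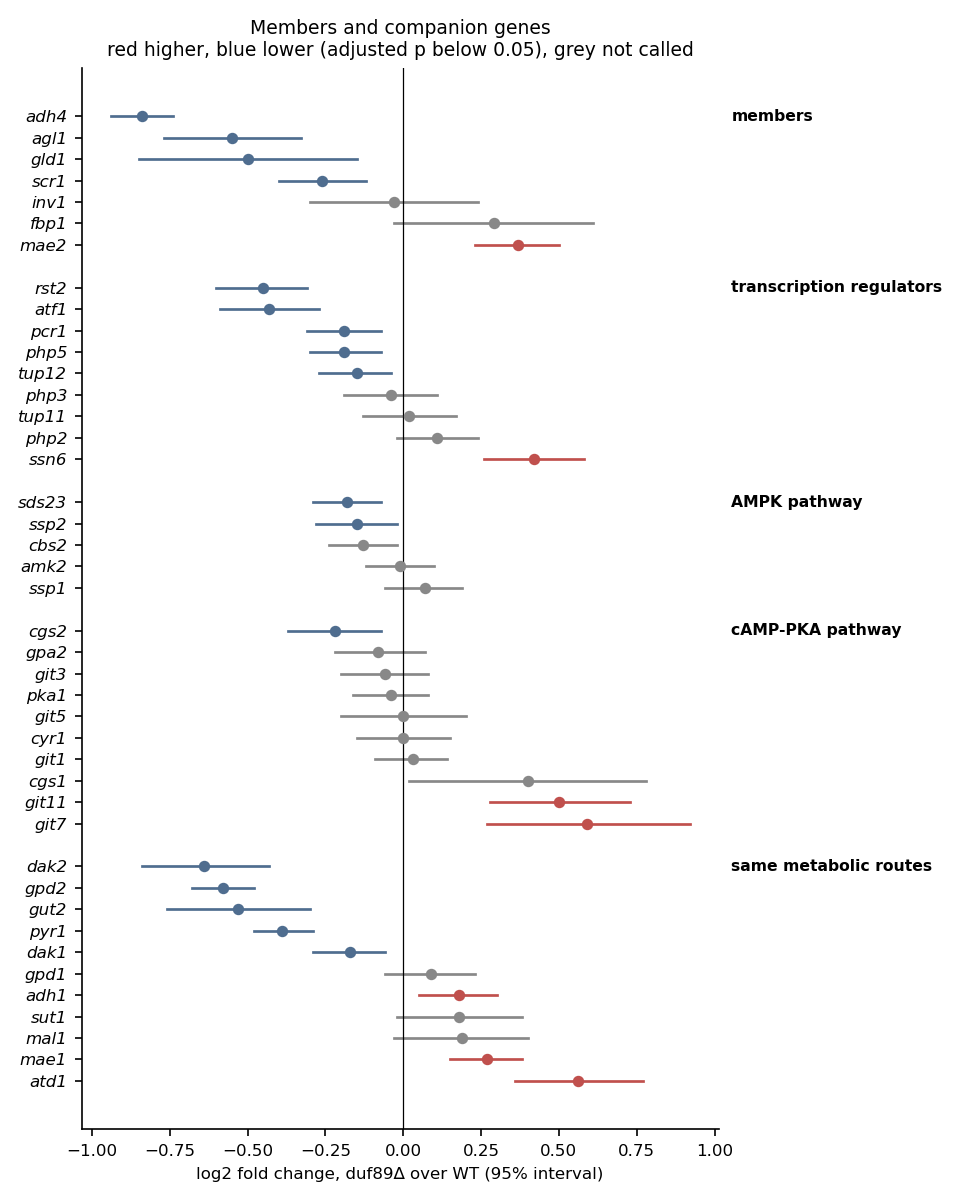
Log2 fold change of duf89∆ over WT (horizontal axis) with its 95% interval for the 7 genes and the 4 lists of companion genes, red where called higher, blue where called lower and grey where not called. The values run from -0.84 for adh4 to 0.59 for git7, and most of the cAMP list lies close to 0.

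Hexose transporter genes border on this set. The gene ght5, for the high-affinity glucose transporter, which Scr1 is also known to repress, measured 49.6 ± 2.4 CPM in duf89∆ and 184 ± 26.3 CPM in WT (SD, n = 3 each; -1.89, SE 0.10, edgeR adjusted p = 1.6e-06). The gene ght3, for a gluconate transporter, measured 2.47 ± 0.42 CPM in duf89∆ and 4.57 ± 0.62 CPM in WT (-0.89, SE 0.20, edgeR adjusted p = 0.0049).

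For each of the 7 genes the 2 protein-coding genes with the most similar pattern were found, by the Euclidean distance of log2 CPM centred on each gene's mean over 6 libraries, among 4828 genes with a mean of at least 50 counts. For adh4 they were the vacuolar amino acid transporter gene stm1 (distance 0.11) and arg5 of arginine synthesis (0.12). For scr1 they were erb1 and the RNA helicase gene ste13 (0.04 each), and for agl1 SPAC20G8.04c (0.14) and SPCC191.01 (0.15). For gld1 they were the ammonium transporter gene amt1 (0.19) and the histone H2A gene hta1 (0.21), for mae2 SPBC2A9.10 (0.05) and cph2 (0.06), for fbp1 apc15 (0.12) and SPBC13G1.05 (0.13), and for inv1 rpc1 (0.02) and syt22 (0.04). The distances of gld1 were the largest of the 7. It had at most 144 raw counts per library, and fbp1, with at most 154, had the smaller distances given above. The reason was not tested. No member was among the nearest genes of another.

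**Figure D5:**
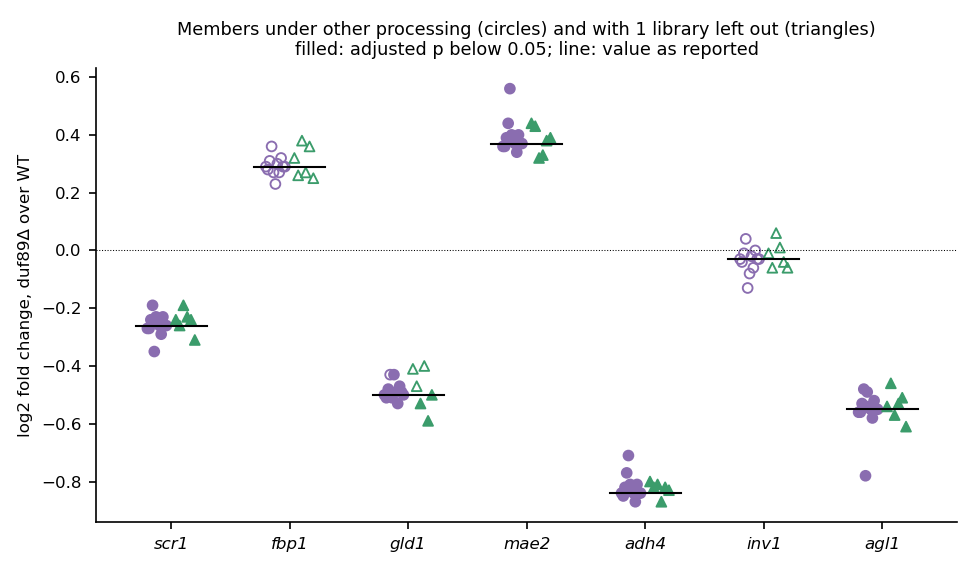
Log2 fold change of duf89∆ over WT (vertical axis) of the 7 genes under other processing (circles) and with 1 library left out (triangles), filled where the adjusted p was below 0.05, with the reported value as a black line. The calls of scr1, mae2, adh4 and agl1 held under all that were drawn, that of gld1 was lost in 4 cases, and fbp1 stayed positive and not called.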

How the data were processed

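Polyadenylated RNA was prepared by hot acid phenol extraction and read as stranded, paired-end TruSeq libraries, per the labels. The deposited values are whole-number counts per gene. Tools listed in the submitters' processing notes are DESeq, DESeq2, SAMtools, HTSeq 0.10.0 and HISAT2 2.1.0, with build ASM294v2 and no role or order; the strand setting was not found there. The authors' deposited table of log2 fold changes, p-values, a test score and average signal was used only where named. The count table has 6987 lines for 6986 genes, as 1 identifier on 2 lines was summed. RefSeq's ASM294v3 annotation (97.8% of genes matched) gave names, neighbours, transcript length and GC content. None of its coordinates or sequences are printed, since the build differs.

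The fit used edgeR 4.0.16 in R 4.3.3 with filterByExpr (minimum count 10), TMM factors and group as the single term, and was tested on simulated data. Each SE was taken as log2 fold change over the root of F, an approximation. Chi-square per degree of freedom within groups ran from 5.85 to 15.6, so no library was counted as a duplicate. The p-values set each difference against the variation between these libraries, which the fit estimates with information shared across genes.

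Named genes are the 7 members, their neighbours and antisense RNAs, up to 3 called genes per companion list by smallest adjusted p, the 2 nearest patterns per member, duf89, ght5 and ght3; others are said to have been chosen later. Members and lists were chosen with earlier results of these data known. Alternatives were DESeq2 1.42.0, limma-voom (limma 3.58.1), other scalings and filters, a stricter threshold, a replicate block and each library left out.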

Additional observations from a re-analysis of the deposited data

How the results depend on the processing

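The calls of adh4, agl1, mae2 and scr1 kept their direction and stayed past the threshold under all 19 alternatives, and fbp1 stayed positive and not called under the 18 that tested it. The scr1 call came closest to the threshold, from -0.31 to -0.19 with 1 library left out (edgeR adjusted p up to 0.0421). For agl1 that range was -0.61 to -0.46 (up to 0.0145), and for adh4 -0.87 to -0.80 (up to 7.16e-05). With at least 10 CPM required in 3 libraries, fbp1, gld1 and inv1 were not tested. Low counts limit the precision of those 3 genes. The gld1 call was lost with total counts only (-0.43, adjusted p = 0.0505) and at an adjusted p below 0.01 (-0.50), and ran from -0.59 to -0.40 with 1 library left out. The value of inv1 turned to 0.04 with total counts only and ran from -0.06 to 0.06 with 1 library left out. The causes were not tested. With 1 library left out, members called lower ran from 3 to 4 and 1 was called higher each time.

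Counts of the companion lists moved more. With total counts only, the transcription regulators had 2 higher and 2 lower, the AMP-activated kinase list had 1 lower, the cAMP list 0 lower, and the metabolic routes 5 higher. With GC-corrected offsets the transcription regulators had 2 higher. At an adjusted p below 0.01 they had 2 lower, and the kinase and cAMP lists 0 lower. The kinase list had 1 lower with upper-quartile scaling, with no filter on low counts and without the mitochondrial and rRNA genes, and with cyclic loess 0 lower and 1 higher. With 1 library left out, the transcription regulators ran from 1 to 3 higher and 2 to 5 lower, the kinase list from 0 to 1 higher and 0 to 3 lower, and the cAMP list from 0 to 1 lower.

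Signs turned for these genes, none of them called as reported: tup11 with protein-coding genes only (-0.01), pka1 with total counts (0.03) and GC-corrected offsets (0.01), pdr1 with total counts (0.01), SPNCRNA.1460 with cyclic loess (0.21), rpc1 with total counts (0.04), cyclic loess (0.01) and without mitochondrial and rRNA genes (0.00), and syt22 with total counts (0.03) and cyclic loess (0.02). With 1 library left out the ranges were -0.07 to 0.00 for pka1, -0.03 to 0.32 for vta1-antisense-1, -0.12 to 0.03 for SPCC794.15, -0.09 to 0.04 for pdr1, -0.05 to 0.06 for rpc1 and -0.06 to 0.05 for syt22. The share of calls over all features that were higher was 53.9% as reported, 66.4% with total counts only and 47.4% with GC-corrected offsets.

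Same-numbered libraries deviated from their group means with correlations of -0.13, -0.17 and 0.26, and the other pairs with -0.28 to 0.34. No pairing by number was seen, but 3 libraries per group are too few to exclude it. With the replicate block the members called lower were 4 and the value of adh4 was -0.84, and no call of a member changed.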
